A study of Mus musculus with 6 samples.

Results

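The genes described here are the heat shock proteins and chaperonins, the families that fold newly made and stress-damaged proteins. They were chosen by symbol: every Hspa, Hspb, Hspd, Hspe, Hsph and Hsp90 gene, every J protein (Dnaja, Dnajb, Dnajc), the subunits of the CCT ring (Cct2 to Cct8 and Tcp1), and Trap1, Ahsa1 and Stip1. A gene needed a probe set that the array annotation pairs with that symbol alone, and its brightest such probe set was used. This gave 83 genes of 19938 on the array with a probe set of their own and the rule used no comparison between the groups. By the place assigned here to their proteins, 39 belong to the cytosol and nucleus, 10 to the CCT ring, 9 to the mitochondrion and 13 to the endoplasmic reticulum (ER). The other 12 were placed elsewhere or have no assigned place.

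Whole thymus was taken from 10-day-old mice and its total RNA hybridised to Affymetrix MoGene-1 arrays. The RUNX2/MYC group holds 3 mice that carry both CD2-Myc and CD2-Runx2 transgenes on a mixed C57BL6/CBA background, and the WT group holds 3 C57/CBA mice without a transgene. CD2 control elements express both transgenes in T cells, whereas the RNA came from all cells of the organ. The study asked which genes separate the premalignant RUNX2/MYC thymus from normal thymus, and mice with a single transgene are not part of the comparison, so the effect of RUNX2 and that of MYC cannot be told apart.

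Chaperones work in relays. Hsp70 proteins bind exposed hydrophobic stretches in a cycle driven by ATP, J proteins bring them their clients and start hydrolysis, and exchange factors such as the Hsp110 proteins reset them. Hsp90 proteins receive part of these clients for late folding, the chaperonins enclose others in a barrel, and small heat shock proteins hold unfolded chains without using ATP. Cytosol, ER and mitochondrion each keep an Hsp70 and an Hsp90 of their own, while the barrel of the cytosol is CCT and that of mitochondria is Hsp60 (Hspd1) with its lid Hsp10 (Hspe1). Heat shock factors drive many cytosolic and some mitochondrial members, the unfolded protein response drives those of the ER, and MYC binds E-boxes of the letters CACGTG at many promoters.

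The promoters below are shown because they belong to members that the results turn on and hold the letters of the elements just named, which most members do not. They are the 250 bases before each start in the RefSeq annotation of GRCm38.p6, 5′ to 3′ on the strand of the gene, with the matched letters in capitals. In Hspe1 (chr1:55087898-55088147, plus strand) the capitals mark 2 overlapping heat shock elements, GAANNTTCNNGAA on either strand, in a stretch of 18 bases. In Hspd1 (chr1:55088244-55088493, minus strand) and Hsph1 (chr5:149636316-149636565, minus strand) they mark an E-box. In Hspa5 (chr2:34771840-34772089, plus strand) and Hsp90b1 (chr10:86705445-86705694, minus strand) they mark ER stress elements, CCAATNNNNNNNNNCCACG on either strand.
Hspe1: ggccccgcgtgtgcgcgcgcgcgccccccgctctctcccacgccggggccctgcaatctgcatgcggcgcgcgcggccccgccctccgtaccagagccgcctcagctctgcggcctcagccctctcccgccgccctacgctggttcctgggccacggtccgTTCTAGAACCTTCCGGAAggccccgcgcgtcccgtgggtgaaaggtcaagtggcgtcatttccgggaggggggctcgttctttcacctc
Hspd1: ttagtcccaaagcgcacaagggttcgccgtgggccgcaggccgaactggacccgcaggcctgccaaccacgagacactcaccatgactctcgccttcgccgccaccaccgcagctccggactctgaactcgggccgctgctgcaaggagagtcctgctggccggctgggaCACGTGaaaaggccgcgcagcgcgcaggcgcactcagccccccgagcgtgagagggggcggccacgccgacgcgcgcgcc
Hsph1: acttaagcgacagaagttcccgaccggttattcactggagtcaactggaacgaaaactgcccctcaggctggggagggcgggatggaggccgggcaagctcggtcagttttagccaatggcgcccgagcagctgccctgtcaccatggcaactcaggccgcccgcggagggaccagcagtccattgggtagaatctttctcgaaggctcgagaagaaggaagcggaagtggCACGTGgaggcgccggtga
Hspa5: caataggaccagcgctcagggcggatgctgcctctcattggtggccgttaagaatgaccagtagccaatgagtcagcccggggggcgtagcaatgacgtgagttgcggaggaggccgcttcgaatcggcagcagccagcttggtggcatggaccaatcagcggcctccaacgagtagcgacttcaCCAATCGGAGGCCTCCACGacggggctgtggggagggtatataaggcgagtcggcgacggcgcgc
Hsp90b1: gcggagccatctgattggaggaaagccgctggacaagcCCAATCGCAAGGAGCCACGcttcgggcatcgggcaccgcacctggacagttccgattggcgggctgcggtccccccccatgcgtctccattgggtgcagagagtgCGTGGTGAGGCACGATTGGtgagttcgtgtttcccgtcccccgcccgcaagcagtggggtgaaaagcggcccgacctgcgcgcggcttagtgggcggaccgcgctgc

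Hspd1 and Hspe1 lie head to head. RefSeq gives Hspd1 a start on the minus strand with 215 bases between it and the Hspe1 start, and a further start 95 bases to the right of the Hspe1 start, so the stretch with the heat shock elements, 89 to 72 bases before the Hspe1 start, lies before a start of each gene. The E-box of Hspd1 sits 80 to 75 bases before the start at the right, the one whose window is printed. That of Hsph1 sits 19 to 14 bases before the start whose window is printed. RefSeq gives Hsph1 a further start at chr5:149636336, and the 250 bases before it hold no E-box. A promoter entry was at hand for 69 of the 83 members and for 15614 genes in all. The E-box was found in 5 members (Hspd1, Hsph1, Dnajb9, Dnajc1 and Dnajc16), 7.25% of those with an entry. The share of all genes was 8.11%, so the members did not hold it more often. Dnajb9, Dnajc1 and Dnajc16, all of the ER, did not pass the test below (log2 fold changes of 0.17, 0.33 and 0.09, limma adjusted p = 0.542, 0.294 and 0.672). The heat shock element was found in 3 members (Dnajb6, and Hspd1 and Hspe1 through the stretch they share), 4.35% beside 0.442% of all genes. The ER stress element was found in 3 members (Dnajc3, Hsp90b1 and Hspa5), again 4.35%, beside 0.128% of all genes. The RUNX motif TGTGGT was found in 5 members (Dnajb5, Dnajb8, Dnajb13, Dnajc6 and Hspa12a), 7.25% beside 13.8% of all genes, and none of those 5 passed the test below. No match of one motif overlapped with a match of another in these members. The motifs describe these windows alone and say nothing of binding.

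The arrays themselves set limits on what follows. Runx2, a transgene product, had log2 signals of 11.73, 11.78 and 11.96 on the RUNX2/MYC arrays and 7.94, 7.94 and 7.93 on the WT arrays, so the Runx2 part of the labels holds. The signal of the MYC transgene is not given here. On the first principal component, which carried 60.5% of the variance, RUNX2/MYC replicate 1 (-6.79) and WT replicate 3 (5.15) lay near the middle, away from the other RUNX2/MYC arrays (39.4 and 45.2) and the other WT arrays (-45.9 and -37). The thymocyte genes Cd3e and Cd3g had means between 12.88 and 13.07 in both groups, as the label of the tissue asks. They do not show an equal share of thymocytes. Of the 7 thymocyte markers measured, Cd4 (-0.74), Rag1 (-0.62) and Dntt (-0.52) were lower in RUNX2/MYC without overlap, and 1 (Cd8a, 0.10) had a positive value. With 3 arrays against 3 an exact permutation test cannot go below p = 0.1 (two-sided), so calls rest on limma, which shares the estimate of spread over all probe sets, with Benjamini-Hochberg adjustment over all 35556 of them. A gene is called here at an adjusted p under 0.05, and fold changes are RUNX2/MYC minus WT on the log2 scale.

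Of the 83 members, 11 rose in RUNX2/MYC thymus, 0 fell and 72 were not called by limma. The count of 11 became 0 in 4 of the 6 fits with 1 array left out (without RUNX2/MYC replicate 2 or 3, or WT replicate 1 or 2) and 4 with cyclic loess or with the 75th percentile of each array set equal. With all arrays this is 13.3% higher, beside 2.27% of all 19938 genes, and 0% lower beside 0.0953%. At an unadjusted p under 0.05, 29 members were higher and 0 were lower, beside 13.2% and 8.01% of all genes, and by the analysis of variance of the study's methods with q values 20 were higher and 1 (Dnaja4) was lower, beside 4.11% and 0.732%. The arrays of the groups did not overlap for 32 members on the higher and 3 on the lower side, where all genes had 15.5% and 11.2%. The median log2 fold change of the members was 0.087, with 55 of 83 above 0, while that of all genes was -0.065 with 40.2% above 0. Scaling moved these medians: with the 75th percentile of each array set equal, that of all probe sets shifted by -0.0966 and that of the members was -0.00953, and with array medians set equal the shift was 0.0841 and the members were at 0.171. Signal level moved with these counts: 63 members lay above the median signal of the probe sets, all 11 calls were among them (17.5%), and their median was 0.20, beside 3.97% called higher and a median of 0.091 for all genes above that level. The 20 members below it had a median of -0.13 and 0 calls. RNA of the whole organ was measured, so a change in the share of a cell type and a change of RNA within cells cannot be told apart.

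The rises were unevenly spread over the cell's compartments, with 7 of 9 mitochondrial members called, 2 of 10 CCT genes, 2 of 39 cytosolic and nuclear genes, 0 of 13 ER genes and 0 of the 12 others. These counts depend on the place assigned. The J proteins Dnajc4 (0.05, limma adjusted p = 0.773) and Dnajc28 (-0.07, adjusted p = 0.755) were counted among the 12 others. Placing either in the mitochondrion would lower the share called there. At an unadjusted p under 0.05, 3 ER genes and 1 of the others were higher and 0 were lower, and by the q values of the methods 1 of each was higher. Of all genes 13.2% were higher at that p and 4.11% by q values. Among genes above the median signal, where all 13 ER genes lay, 22.7% were higher at that p, so neither count stood out. The differences between compartments were not tested. Without the mitochondrial genes, 4 of 74 members were called, which is 5.41%, beside 2.27% of all genes. Among genes above the median signal, where 54 of the 74 lay, 3.97% were called higher.

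**Figure D1:**
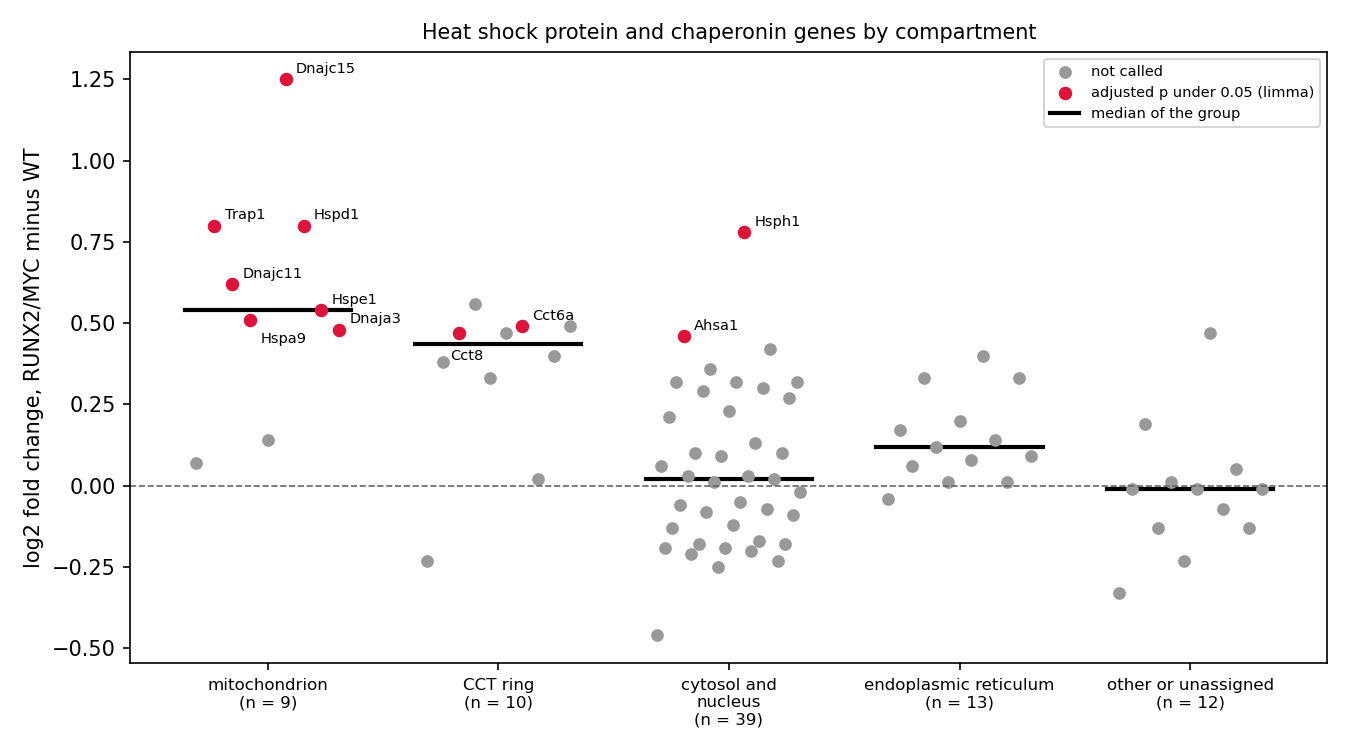
Log2 fold change (RUNX2/MYC minus WT, 3 arrays each) of the 83 members by compartment, 1 point per gene, with the median of each compartment as a bar and genes called by limma in red. The medians are 0.54 for the mitochondrion, 0.43 for CCT, 0.019 for cytosol and nucleus, 0.12 for the ER and -0.00995 for the rest.

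Most members assigned to the mitochondrion rose. The chaperonin Hspd1, its lid Hspe1, the Hsp70 of the matrix (Hspa9, mortalin), the Hsp90 of mitochondria (Trap1) and 3 J proteins (Dnaja3, Dnajc11 and Dnajc15) were higher in RUNX2/MYC thymus, by 0.48 to 1.25 on the log2 scale. Each of these 7 genes had its lowest RUNX2/MYC array above its highest WT array, as did 15.5% of all genes. Among genes above the median signal, where all 9 mitochondrial members lay, the share was 26.9%. The 7 were picked by the test on the same values, so the lack of overlap adds no support. The median over all 9 was 0.54, and the lowest value, 0.07, was also above 0.

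Hspd1 folds imported matrix proteins inside its barrel. It had log2 signals of 11.71, 11.61 and 11.77 on RUNX2/MYC arrays and 10.88, 10.88 and 10.92 on WT arrays. The gap between groups was far wider than the spread within either, at a log2 fold change of 0.80 (standard error 0.084, limma adjusted p = 0.0145), or 1.74-fold. A further probe set of Hspd1, dimmer in mean signal (10.54 against 11.29), gave 1.10 (adjusted p = 0.014), so the size of the rise depended on the probe set while its direction did not. Hspe1, which closes the barrel, had 11.83, 11.72 and 11.69 against 11.17, 11.16 and 11.30, a rise of 0.54 (standard error 0.089, adjusted p = 0.0394 by limma), and its other probe set gave 0.53. RefSeq lists 5 pseudogenes of Hspd1 and 7 of Hspe1, and probes could read any of these that are transcribed, which was not tested.

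Hspa9 pulls precursor proteins through the inner membrane and folds them. It had 11.42, 11.40 and 11.52 against 10.91, 10.94 and 10.97, a rise of 0.51 (standard error 0.082, limma adjusted p = 0.0362). Trap1, which acts on clients of the respiratory chain, had 10.80, 10.83 and 10.95 against 10.03, 10.03 and 10.11, a rise of 0.80 (standard error 0.086, limma adjusted p = 0.0152). Both genes were even within groups, with SDs of 0.060 and 0.032 for Hspa9 and 0.077 and 0.048 for Trap1.

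The J proteins of mitochondria differed among themselves. Dnajc15, a J protein of the inner membrane tied to protein import and to the respiratory chain, had 10.69, 10.63 and 10.13 against 9.35, 9.24 and 9.10. Its rise of 1.25 (standard error 0.164, limma adjusted p = 0.0226), or 2.39-fold, was the largest of the 83 genes, and its spread within RUNX2/MYC was also wide (SD 0.306, n = 3) with replicate 3 below the other 2. Dnajc11, a J protein found with the complex that shapes the cristae, had 8.86, 9.08 and 9.10 against 8.35, 8.36 and 8.48 and rose by 0.62 (limma adjusted p = 0.0364). Dnaja3 (TID1), the J protein that serves Hspa9 in the matrix, had 9.33, 9.34 and 9.35 against 8.79, 8.84 and 8.97, a rise of 0.48 (limma adjusted p = 0.0484). Its RUNX2/MYC arrays were nearly identical, and it was the weakest call of the 7. The import motor J protein Dnajc19 (0.14, limma adjusted p = 0.428) and Dnajc30 (0.07, adjusted p = 0.689) were not called, and their arrays overlapped between groups.

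These mitochondrial calls rested on all 6 arrays more than their sizes did. With any array left out, the 7 fold changes stayed above 0, between 0.44 (Dnaja3) and 1.43 (Dnajc15). Without RUNX2/MYC replicate 2 or 3, or WT replicate 1 or 2, none of the 7 passed, with limma adjusted p up to 0.115 for Hspd1 and Trap1 and up to 0.242 for Dnaja3, and in each of these cases only 3 or 4 probe sets of the whole array passed. Without RUNX2/MYC replicate 1 all but Dnaja3 (adjusted p = 0.0514) passed, and without WT replicate 3 Hspd1, Hspe1, Trap1 and Dnajc15 passed while Hspa9 (0.056), Dnajc11 (0.0509) and Dnaja3 (0.0516) did not. With cyclic loess, or with the 75th percentile of the arrays set equal, 3 of the 7 passed.

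**Figure D2:**
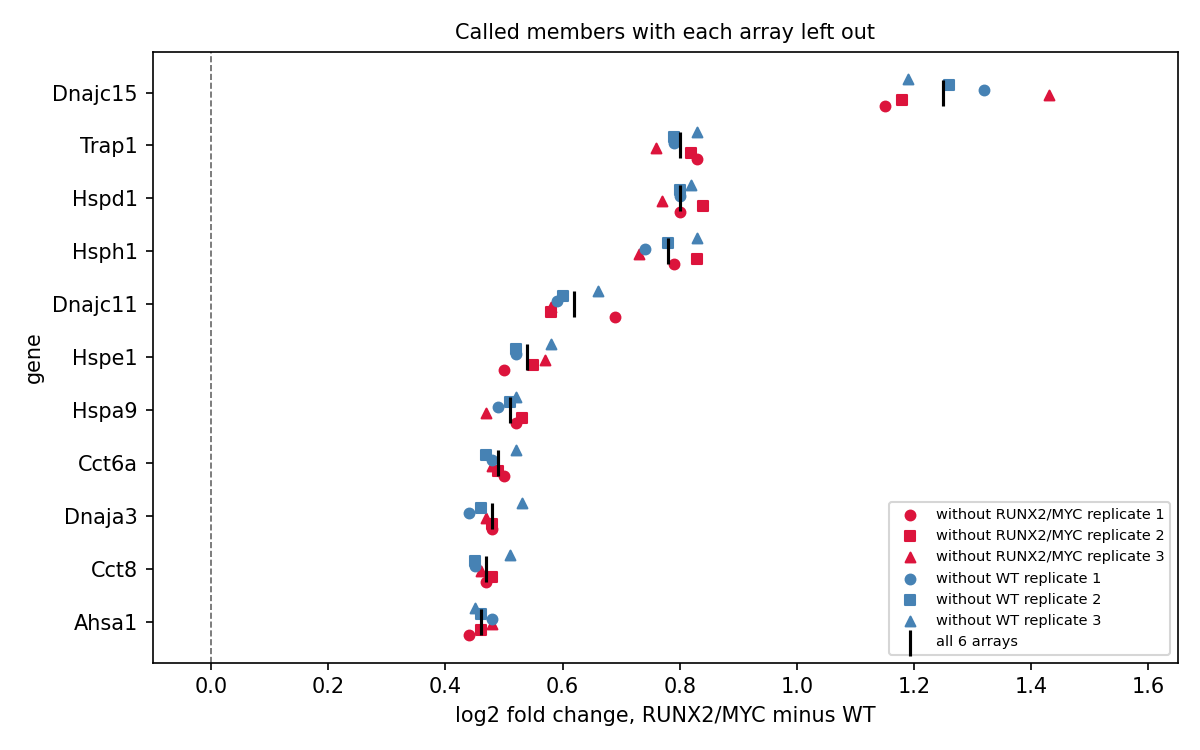
Log2 fold change (RUNX2/MYC minus WT, horizontal axis) of the 11 members called by limma, with all 6 arrays (black bar) and with each array left out in turn (red for a RUNX2/MYC array, blue for a WT array). Every point lies above 0, from 0.44 for Ahsa1 and Dnaja3 to 1.43 for Dnajc15, and the largest moves belong to Dnajc15.

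Few genes of the CCT ring, which folds actin, tubulin and many other cytosolic proteins, were called, although their values lay close to each other. All 8 subunits of the somatic ring had every RUNX2/MYC array above every WT array, as did 15.5% of all genes and 26.9% of those above the median signal, with log2 fold changes from 0.33 (Tcp1) to 0.56 (Cct3) and a median of 0.47. Limma called 2 of them, Cct6a and Cct8, while the analysis of variance of the methods with q values called all 8. The remaining genes of the group, Cct6b, a form of the testis, and Cct8l1, had low signals, values of 0.02 and -0.23 and no call, and Cct6b was at -0.08 with the 75th percentile set equal.

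Cct6a had 11.65, 11.65 and 11.67 against 11.15, 11.13 and 11.23, a rise of 0.49 (standard error 0.080, limma adjusted p = 0.0371). Cct8 had 10.83, 10.81 and 10.84 against 10.31, 10.32 and 10.44, a rise of 0.47 (standard error 0.082, limma adjusted p = 0.0451). Cct3 had 11.42, 11.51 and 11.43 against 10.74, 10.92 and 11.04, a larger difference of 0.56 that narrowly missed the threshold (limma adjusted p = 0.051), with WT values spread over 0.148 (SD, n = 3). Cct5 (0.47, adjusted p = 0.0516) and Cct4 (0.49, adjusted p = 0.0625) lay close behind, followed by Cct2 (0.40, 0.0738), Cct7 (0.38, 0.0919) and Tcp1 (0.33, 0.0989).

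All 6 somatic subunits without a call had limma adjusted p between 0.051 and 0.0989, and the count of calls moved with the settings. It was 7 when only probe sets above the median signal or only those of a single symbol were tested, 5 with array medians set equal, and 0 with the 75th percentile or cyclic loess. Leaving out WT replicate 3 or RUNX2/MYC replicate 1 brought it to 1, and leaving out any of the other 4 arrays to 0. In each of these settings the median of the group stayed above 0, from 0.305 to 0.515.

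**Figure D3:**
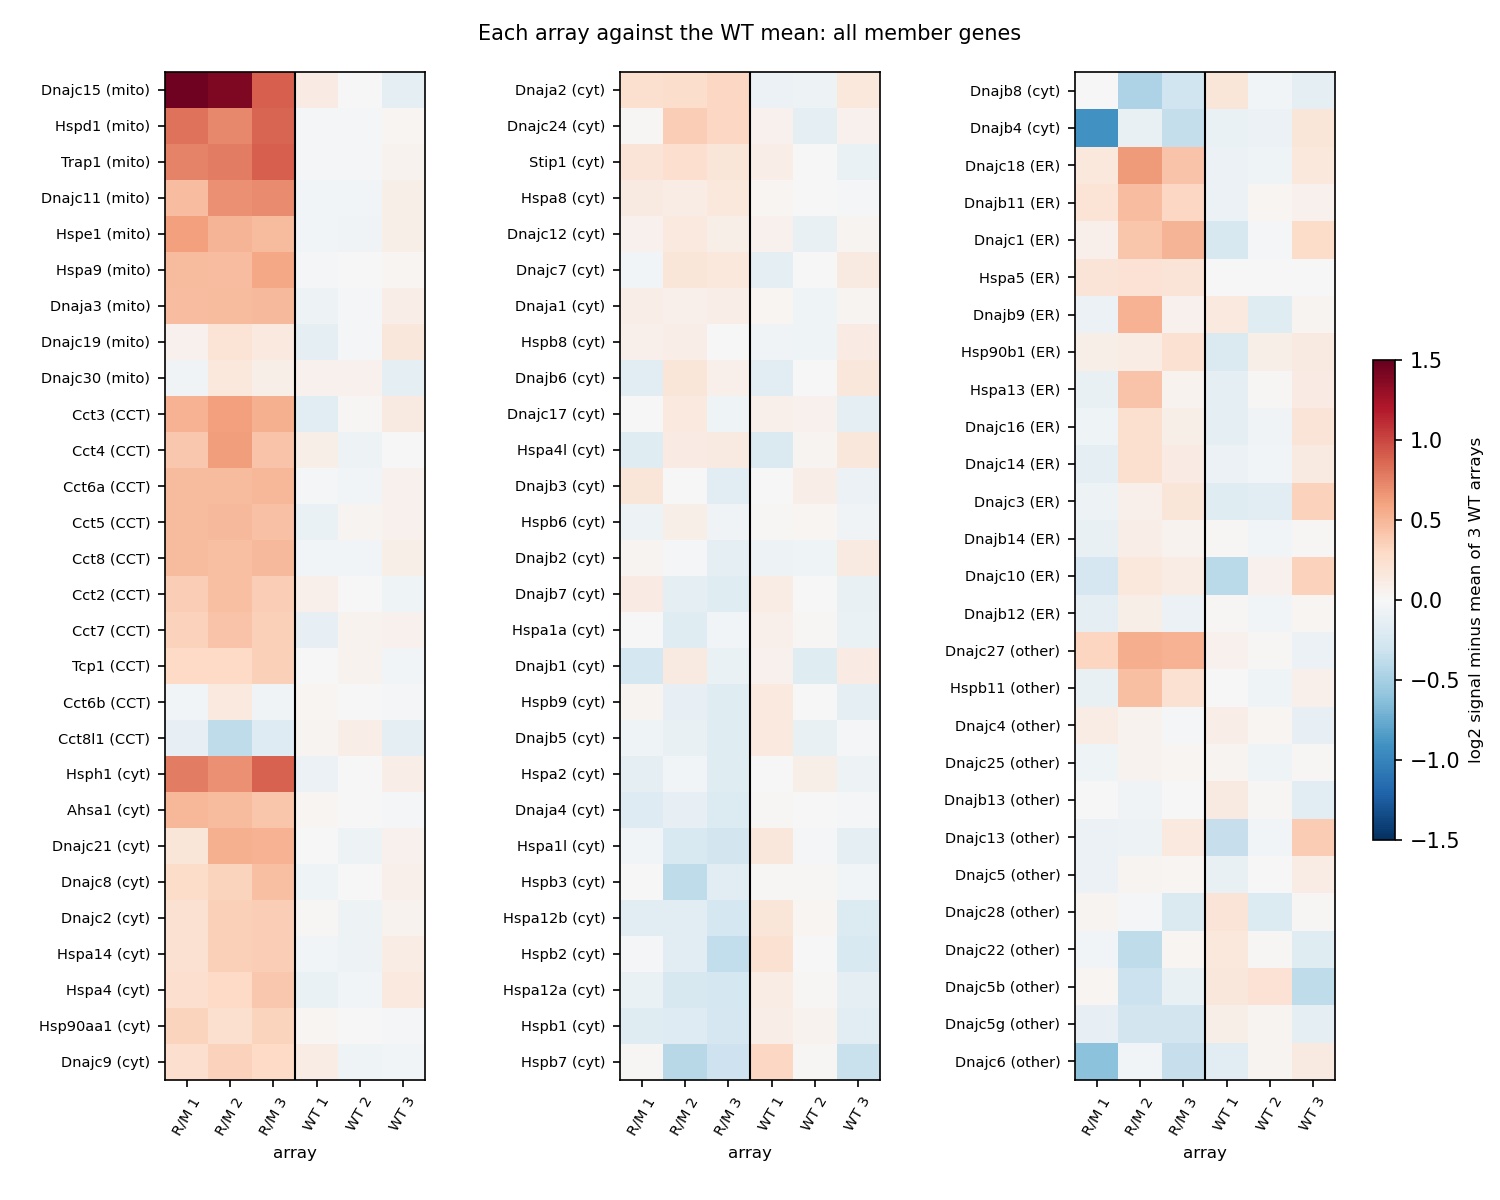
Log2 signal of each array minus the mean of the 3 WT arrays for all 83 members (rows, by compartment), with RUNX2/MYC arrays (R/M) left and WT arrays right of the line in each panel. The block of red at the top left holds the mitochondrial and CCT genes, while small heat shock proteins are pale or blue and several ER genes are red in RUNX2/MYC replicate 2 mainly.

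Cytosol and nucleus, the largest compartment with 39 genes, held 2 calls (5.13%, beside 2.27% of all genes) and a median of 0.019. That median had no stable sign, at -0.03 without RUNX2/MYC replicate 2, -0.00457 without WT replicate 1, -0.0772 with the 75th percentile set equal, and -0.00527 and -0.00559 with cyclic loess and quantile normalization. Hsph1, an Hsp110 that resets Hsp70 and helps dissolve aggregates, had 9.53, 9.45 and 9.65 against 8.67, 8.76 and 8.86. Its rise of 0.78 (standard error 0.097, limma adjusted p = 0.02), or 1.72-fold, was close to that of Hspd1. Ahsa1, which speeds the ATPase of Hsp90, had 10.99, 10.96 and 10.91 against 10.52, 10.49 and 10.46 and rose by 0.46 (standard error 0.079, limma adjusted p = 0.0432). Left-out arrays kept Hsph1 between 0.73 and 0.83 and Ahsa1 between 0.44 and 0.48. Of these 6 fits Hsph1 passed in the pair that left out RUNX2/MYC replicate 1 or WT replicate 3 (limma adjusted p from 0.0329 to 0.13 over the 6), and Ahsa1 passed in none (0.0507 to 0.224).

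The main Hsp70 and Hsp90 genes of the cytosol were higher on every RUNX2/MYC array than on any WT array, by less than Hsph1, and limma called neither. Hspa8 (Hsc70), the constant Hsp70 of the cytosol, had 13.37, 13.35 and 13.40 against 13.27, 13.23 and 13.21. The difference was 0.13 (standard error 0.078, limma adjusted p = 0.338, q = 0.0507 by the analysis of variance of the methods), and its other probe sets gave 0.16 and 0.41, the latter with a standard error of 0.173. A further probe set that Hspa8 shares with the small nucleolar RNAs Snord14c and Snord14d gave 0.77 (adjusted p = 0.148) and was not used. Hsp90aa1, the inducible Hsp90, had 12.22, 12.13 and 12.22 against 11.92, 11.88 and 11.86, a difference of 0.30 (limma adjusted p = 0.117, q = 0.0291 by the analysis of variance) that all 3 of its probe sets shared (0.28 to 0.30). Hsp90ab1 and Hspa1b had no probe set of their own and are not analysed here.

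Hspa1a, Dnajb1 and Hspb1, which heat induces as it does Hsph1 and Hsp90aa1, were not called and had negative values. Hspd1 and Hspe1, which hold heat shock elements, rose by 0.80 and 0.54. The signals of Hspa1a (group means 7.49 and 7.57) and Hspb1 (7.84 and 8.05) lay little above the median of the probe sets, 7.42. Members below that median had a median log2 fold change of -0.13, so small negative values of dim genes say little. Hspa1a, the inducible Hsp70, had 7.56, 7.39 and 7.53 against 7.64, 7.59 and 7.47, a difference of -0.07 (limma adjusted p = 0.624, and 0.008 with cyclic loess), and the probe set it shares with Hspa1b gave -0.04. Dnajb1, its J protein under stress, had 9.02, 9.41 and 9.18 against 9.34, 9.10 and 9.40, a difference of -0.08 (adjusted p = 0.721) that was 0.01 without RUNX2/MYC replicate 1. The arrays of the groups overlapped for both genes. Hspb1 (Hsp25), the small heat shock protein of the same programme, had 7.87, 7.85 and 7.79 against 8.15, 8.10 and 7.89, a difference of -0.21 (limma adjusted p = 0.261) without overlap. The 7 cytosolic small heat shock proteins had a median of -0.18, 0 calls and a highest value of 0.06 (Hspb8), 3 of the 7 lay below the median signal, and at an unadjusted p under 0.05 the count was 0 as well.

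Other members of the Hsp70 cycle lay between. Hspa4, an exchange factor of the Hsp110 family, had 11.03, 11.07 and 11.18 against 10.67, 10.73 and 10.92, a difference of 0.32 (limma adjusted p = 0.162). Stip1 (HOP), which links Hsp70 to Hsp90, had 11.43, 11.49 and 11.42 against 11.34, 11.23 and 11.14, a difference of 0.21 (adjusted p = 0.241). The J protein Dnaja1 differed by 0.09 (adjusted p = 0.49), and by -0.04 with cyclic loess. Its other probe set gave 0.00, and a probe set that it shares with Mir207, not used here, gave -0.32 (limma adjusted p = 0.216). Among the 19 cytosolic J proteins 0 were called, 5 had an unadjusted p under 0.05, all of them higher, and the median was 0.031. Of all genes 13.2% were higher at that p, and 22.7% of those above the median signal, where 14 of the 19 lay. The count was not tested against these shares. Those 5, named after their values were seen, were Dnajc21 (0.42), Dnajc8 (0.36), Dnajc2 (0.32), Dnajc9 (0.29) and Dnaja2 (0.27), with limma adjusted p from 0.104 to 0.198. Dnajc21 and Dnajc2 serve ribosome assembly and nascent chains, Dnajc8 belongs to the spliceosome and Dnajc9 escorts histones. Hspa14, the Hsp70 that works with Dnajc2 at the ribosome, had 9.81, 9.94 and 9.96 against 9.55, 9.51 and 9.70, a difference of 0.32 (limma adjusted p = 0.145). Dnajb6 was read by a dim probe set (0.03), and 4 brighter ones that it shares with Gm4247, not used here, gave 0.19 to 0.22. The lowest value of all members was that of Dnajb4, a further cytosolic J protein, with 9.11, 9.90 and 9.66 against 9.91, 9.93 and 10.20. Its difference of -0.46 (standard error 0.206, limma adjusted p = 0.253) rested mainly on RUNX2/MYC replicate 1, without which it was -0.23.

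**Figure D4:**
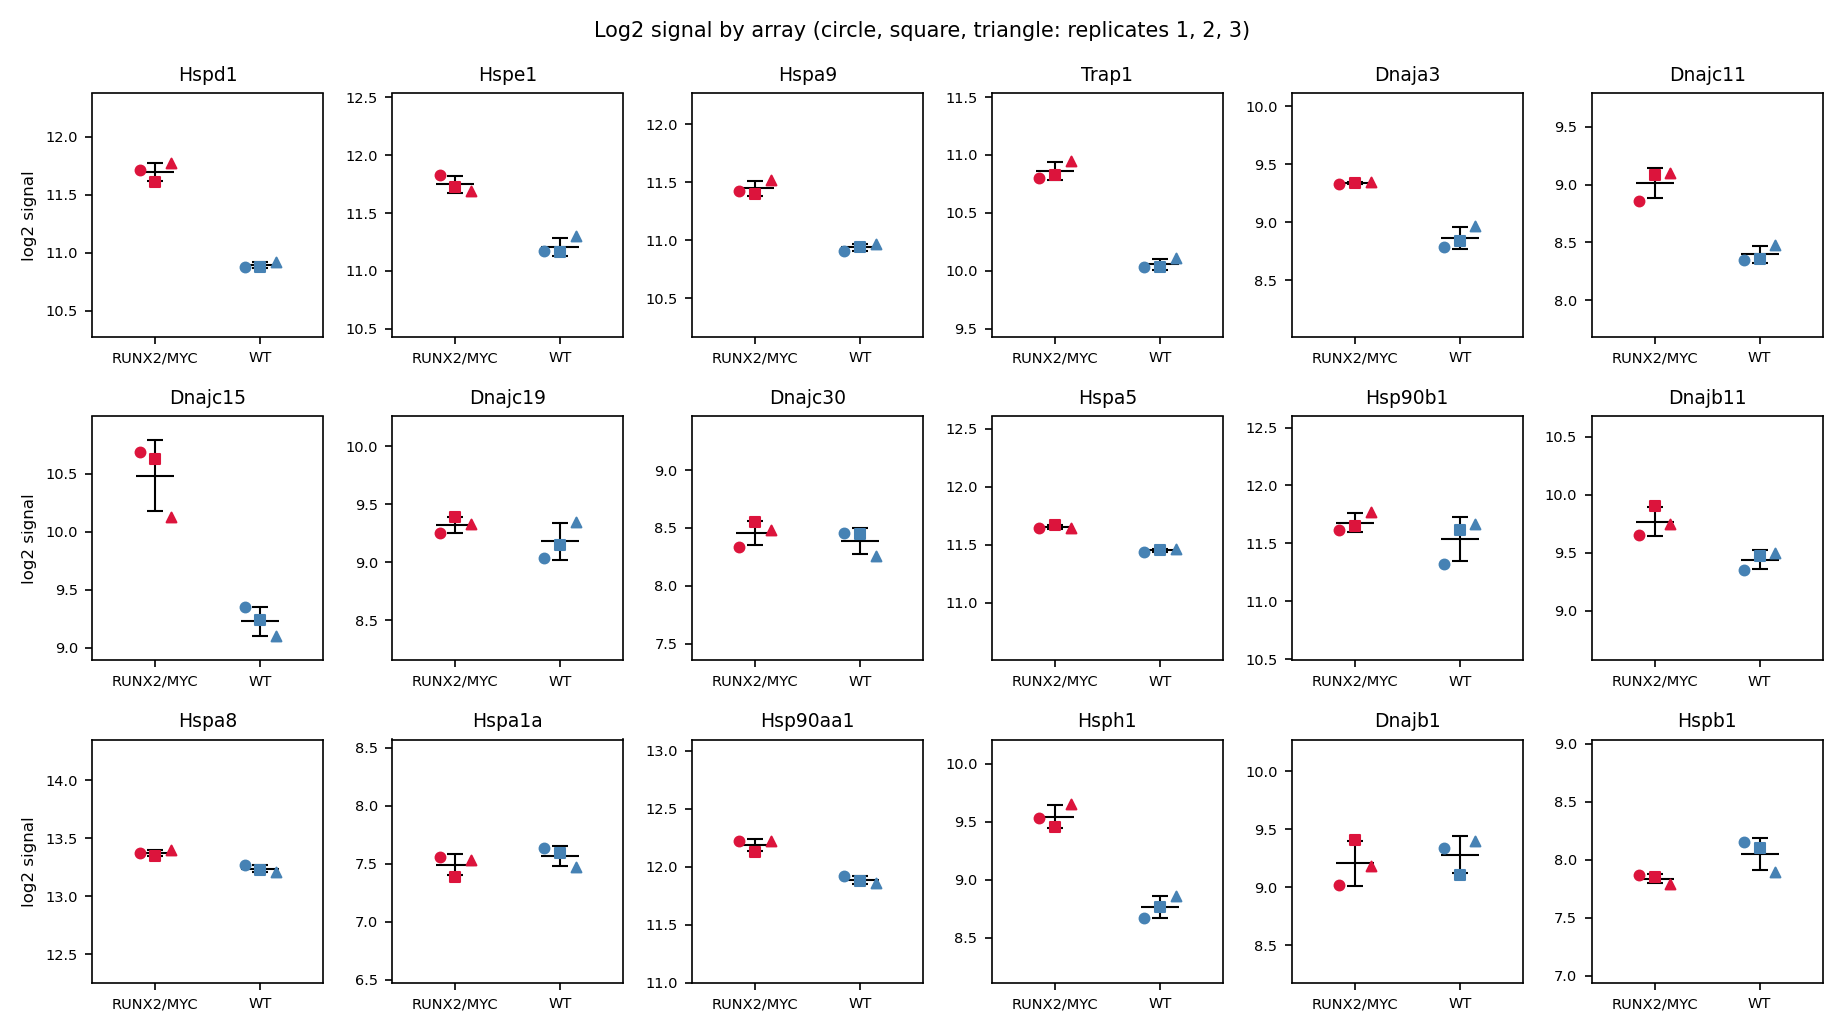
Log2 signal (vertical axis, the same span in each panel) on each array for all 9 mitochondrial members, 3 ER members and 6 cytosolic members, with circle, square and triangle for replicates 1 to 3 and the mean and SD of each group in black. Hspd1, Trap1, Dnajc15 and Hsph1 are far apart between groups, Hspa5 and Hsp90aa1 are separated by 0.20 and 0.30, and Hspa1a and Dnajb1 overlap.

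The ER set showed small positive values and 0 calls of 13, with a median of 0.12 and 12 of 13 above 0. Hspa5 (BiP), the Hsp70 of the ER and a main target of the unfolded protein response, had 11.64, 11.67 and 11.64 against 11.44, 11.45 and 11.46. Its groups were tight (SD 0.017 and 0.0099) and did not overlap, at a difference of 0.20 (standard error 0.076, limma adjusted p = 0.212, q = 0.0165 by the analysis of variance of the methods). Limma's standard error draws on the spread of all probe sets, and that of the analysis of variance on these 6 values alone. Hsp90b1 (GRP94), the Hsp90 of the ER, had 11.62, 11.65 and 11.77 against 11.32, 11.62 and 11.67, a difference of 0.14 (limma adjusted p = 0.461) with overlap. Both genes carry the ER stress elements printed above, as does Dnajc3 (P58IPK), which differed by 0.06 (limma adjusted p = 0.826), and by -0.09 with cyclic loess.

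Among the J proteins of the ER, Dnajb11 (ERdj3) had 9.65, 9.90 and 9.75 against 9.35, 9.47 and 9.50, a difference of 0.33 (limma adjusted p = 0.156), and Dnajb9 (ERdj4) differed by 0.17 (adjusted p = 0.542) with overlapping arrays. Dnajc18, named after its values were seen, had the highest value of the compartment, 0.40 (adjusted p = 0.184). Single arrays weighed more here than in the other compartments: 9 of the 13 genes were highest on RUNX2/MYC replicate 2 and 9 were lowest on WT replicate 1. The median fell from 0.12 to 0.0104 without the former and to 0.036 without the latter. RUNX2/MYC replicate 2 was also the array on which all 6 measured adipocyte markers were highest, with Ucp1 at 9.93 beside 6.12 to 6.95 elsewhere and a summed linear signal of 4432 beside 1320 at the lowest RUNX2/MYC array and 1116 to 1362 in WT. The part of such tissue in the ER values was not tested.

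The 12 genes with another or no assigned place had a median of -0.00995 and 0 calls. Dnajc27, a J protein with a GTPase domain, had 7.81, 8.03 and 8.01 against 7.55, 7.50 and 7.40, a difference of 0.47 (limma adjusted p = 0.0695) without overlap. Dnajc6 (auxilin), which uncoats clathrin vesicles, had 9.35, 9.92 and 9.62 against 9.79, 10.00 and 10.10, a difference of -0.33 (adjusted p = 0.273). Dnajc13, an endosomal J protein with 15 probe sets of its own, gave -0.07 to 0.51 over them, and its brightest gave -0.01.

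Marker genes of other cells moved with the groups as well. All 8 markers of thymic epithelium were lower in RUNX2/MYC, with a median of -0.28 and a summed linear signal of 10564 to 11882 beside 14193 to 15633 in WT. Limma called 0 of them, while 7 had no overlap, 5 were lower at an unadjusted p under 0.05 and 3 were lower by the q values of the methods (Cldn4, Foxn1 and Krt8), beside 11.2%, 8.01% and 0.732% of all genes. Of the 7 thymocyte markers 6 had negative values, 3 were lower at an unadjusted p under 0.05 and 0 were called, with Cd4 at -0.74 (adjusted p = 0.091) and Rag1 at -0.62 (adjusted p = 0.0963), and their sums were 27538 to 32376 beside 33038 to 36976. Both measured erythroid markers were highest on RUNX2/MYC replicate 1 (sums of 903 to 2447 beside 602 to 829), while muscle, B cell, phagocyte and immediate early genes had medians between -0.254 and 0.052. No marker was near 0, since log2 signals of arrays do not reach it. The part of these cells in the chaperone values was not tested. Without RUNX2/MYC replicate 1, the array highest in erythroid markers, the median log2 fold change was 0.519 for mitochondria with 6 calls and 0.436 for CCT with 1 call. Without RUNX2/MYC replicate 2, the array highest in adipocyte markers, it was 0.555 and 0.396 with 0 calls in either.

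Genes of the same pathways outside the symbol rule were taken from a list of co-chaperones, exchange factors, prefoldin, mitochondrial proteases, heat shock factors and genes of the unfolded protein response. Of 79 listed, 75 had a probe set of their own, and 4 rose (5.33%, beside 2.27% of all genes and 3.97% of those above the median signal, where 72 of the 75 lay), 0 fell and 71 were not called by limma. At an unadjusted p under 0.05, 36 were higher and 1 (Hsf5) was lower, where 13.2% of all genes and 22.7% of those above the median signal were higher, and the median was 0.26. The called genes were Clpp, the protease that clears misfolded proteins of the mitochondrial matrix (0.68, adjusted p = 0.023), and 3 genes listed as co-chaperones, the prolyl isomerases Ppid (0.58, adjusted p = 0.0336) and Fkbp4 (0.55, adjusted p = 0.0305), which bind Hsp90, and Aarsd1 (0.56, adjusted p = 0.047). Clpp had 10.45, 10.51 and 10.31 against 9.78, 9.70 and 9.74, and Fkbp4 had 10.04, 10.03 and 10.10 against 9.44, 9.50 and 9.57, with no overlap in either. None of the 4 passed without RUNX2/MYC replicate 2 or 3, or without WT replicate 1 or 2.

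By role, the co-chaperones of Hsp70 and Hsp90 had a median of 0.31 with 3 of 21 called, mitochondrial proteases and unfoldases 0.30 with 1 of 9, prefoldin and other CCT partners 0.27 with 0 of 9, and exchange factors 0.23 with 0 of 11. At an unadjusted p under 0.05, 14 of the 21 co-chaperones were higher by limma, and 5 genes of each of the other sets just named. All genes of these sets lay above the median signal, except that 10 of the 11 exchange factors did. Above that level 22.7% of genes were higher at that p and 3.97% were called higher. The counts were not tested against these shares. Lonp1, a further matrix protease, had 8.72, 8.96 and 8.97 against 8.33, 8.34 and 8.52, a difference of 0.48 (limma adjusted p = 0.0828), and the matrix exchange factor Grpel1 differed by 0.26 (adjusted p = 0.262). Of the Hsp90 partners Ptges3 (p23) differed by 0.34 (adjusted p = 0.101) and Cdc37 by 0.21 (adjusted p = 0.232). The sensors and targets of the unfolded protein response had 0 of 21 called, 7 higher at an unadjusted p under 0.05, 2 higher by the q values of the methods (Pdia4 and Pdia6), 12 higher without overlap and a median of 0.18. All 21 lay above the median signal, where 22.7% of genes were higher at that p and 26.9% were higher without overlap. The highest values without overlap, named after they were seen, were those of Sdf2l1 (0.59, limma adjusted p = 0.0547), the disulfide isomerases Pdia4 (0.42, adjusted p = 0.0556) and Pdia6 (0.41, adjusted p = 0.0658), Derl2 of ER-associated degradation (0.42, adjusted p = 0.166) and Creld2 (0.38, adjusted p = 0.0984). Xbp1 (-0.05, adjusted p = 0.804) and Ddit3 (0.01, adjusted p = 0.945), both induced by ER stress, had arrays that overlapped, as did Atf6, which had 9.26, 9.64 and 9.65 against 8.78, 8.86 and 9.27, a difference of 0.55 (adjusted p = 0.156), and the exchange factor Hyou1 differed by 0.23 (adjusted p = 0.211). The list of heat shock factors, which also holds their binding protein Hsbp1, had 0 of 4 called and a median of -0.084. Hsf2 was at 0.13 (limma adjusted p = 0.621) and Hsbp1 at 0.01 (adjusted p = 0.968). Hsf4 was at -0.18 (adjusted p = 0.443) and Hsf5 at -0.28 (adjusted p = 0.222), both below the median signal. Hsf1 is not analysed here.

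**Figure D5:**
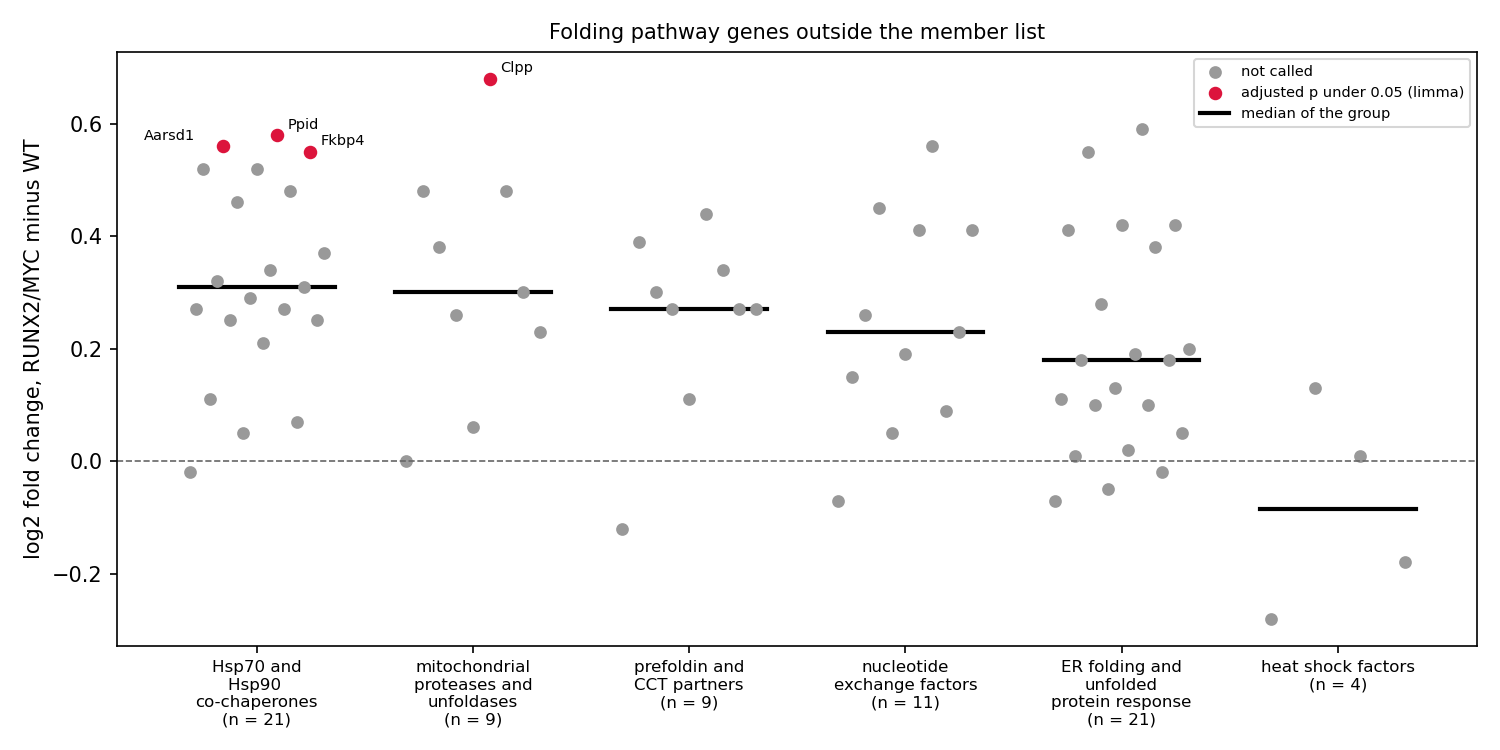
Log2 fold change (RUNX2/MYC minus WT, vertical axis) of the 75 measured pathway genes outside the symbol rule by role, 1 point per gene, with the median of each role as a bar and genes called by limma in red. Co-chaperones and mitochondrial proteases hold the 4 called genes, from 0.55 to 0.68, and heat shock factors with Hsbp1 lie between -0.28 and 0.13.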

How the data were processed

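Total RNA of whole thymus from 3 RUNX2/MYC and 3 WT mice, labelled as separate biological replicates, was hybridised to 6 MoGene-1 arrays. The authors deposited 1 table of log2 signals, used here unchanged. The submitters' processing notes name RMA, which subtracts background, normalizes quantiles between arrays and summarises probes, and version 1.4 of Affymetrix Expression Console. By the methods, Partek Genomics Suite was used and GC content was adjusted for first, so the exact route is open. RMA compresses the fold changes of dim genes, and the number of arrays limits precision.

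Of 35556 probe sets the annotation pairs 21789 with a single symbol, 1621 with several and 12146 with none. The members, with 106 probe sets of their own, and the pathway and marker lists were chosen with earlier results of these data known. Groups were taken from the labels and compared with limma 3.58.1 in R 4.3.3 (lmFit and eBayes, no covariate, Benjamini-Hochberg adjustment over all probe sets, threshold 0.05), which was tested on simulated data. The ANOVA with q values of the methods, other normalizations, filters, variance models, the replicate number as a block and each array left out were alternatives, and leaving out both arrays near the middle of the first component was added after seeing the data. Named genes are all called members, the main chaperones of each compartment, the 3 highest and 3 lowest members without a call, all called pathway genes and 10 set regulators and partners. Runx2 was named through the list of probe sets supplied with the study. Promoter sequences are those of RefSeq, build GRCm38.p6, with a window of 250 bases searched on both strands.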

Additional observations from a re-analysis of the deposited data

How the results depend on the processing

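The 11 called members kept a positive fold change in all 20 alternatives, while the number that passed moved. Members higher in RUNX2/MYC numbered 6 by ANOVA with Benjamini-Hochberg adjustment, 20 by ANOVA with q values, 38 with array weights, 4 with cyclic loess, 4 with the 75th percentile, 17 with probe sets above the median signal, 17 with those of a single symbol, 17 with a trended and robust prior and 29 without both arrays near the middle of the first component, an alternative chosen after seeing the data. That alternative leaves out the array of each group nearest to the other group and called 5035 probe sets higher and 7192 lower, so its counts carry little. Members lower numbered 1 by ANOVA with q values, 14 with array weights and 7 without both arrays. The array weights did not converge and called 9165 probe sets higher and 12137 lower, so those counts carry little. Cytosolic members higher were 1 by ANOVA with Benjamini-Hochberg adjustment, cyclic loess, the 75th percentile and quantile normalization, 15 with array weights and 9 without both arrays. CCT subunits higher were 1 by ANOVA with Benjamini-Hochberg adjustment and quantile normalization, 8 by ANOVA with q values, array weights and without both arrays, 0 with cyclic loess and the 75th percentile, 5 with median centring, and 7 with each filter and the trended prior. Mitochondrial members higher were 3 by ANOVA with Benjamini-Hochberg adjustment, cyclic loess and the 75th percentile. ER members higher were 1 by either form of ANOVA, 5 with array weights and 4 without both arrays. Pathway genes higher were 2 by ANOVA with Benjamini-Hochberg adjustment, 14 by ANOVA with q values, 51 with array weights, 1 with cyclic loess, 0 with the 75th percentile, 9 with median centring, 15 with probe sets above the median signal, 17 with those of a single symbol, 9 with the trended prior and 31 without both arrays. The median over members was 0.15 with array weights, -0.00953 with the 75th percentile, 0.171 with median centring, 0.198 above the median signal and 0.21 without both arrays. Over all probe sets, cyclic loess called 457 higher and 124 lower, the 75th percentile 209 and 45, and the deposited scale 596 and 45. The causes were not tested.

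With 1 array left out, members higher ranged from 0 to 10, members lower stayed at 0, cytosolic members higher ranged from 0 to 2, CCT subunits from 0 to 1, mitochondrial members from 0 to 6, ER members stayed at 0, pathway genes ranged from 0 to 7 and the median over members from 0.0334 to 0.159. The counts of 0 fell where RUNX2/MYC replicate 2 or 3 or WT replicate 1 or 2 was left out. Whether the replicate numbers pair the samples is not known. The methods name littermate-matched controls, and the labels do not say which arrays share a litter. Deviations of same-numbered arrays correlated at 0.501, -0.148 and 0.606. RUNX2/MYC replicates 1 and 3 correlated best with the WT array of the same number, and RUNX2/MYC replicate 2 with WT replicate 3 (0.209). With the replicate number as a block all 11 members were still called, CCT subunits higher were 5 and pathway genes higher 14. Over all probe sets that fit called 1654 higher and 763 lower, beside 596 and 45 without the block.

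Genes without a call changed sign as follows. Cct6b was -0.005 with array weights and -0.08 with the 75th percentile, Ddit3 -0.09 with the latter, and Dnaja1 -0.04, -0.005 and -0.006 with cyclic loess, the 75th percentile and quantile normalization. Dnajb1 was 0.07 with array weights, 0.005 with median centring and 0.07 without both arrays, Dnajc3 was -0.09, -0.04 and -0.03 with cyclic loess, the 75th percentile and quantile normalization, Hspa1a was 0.008 with cyclic loess and 0.01 with median centring, and Xbp1 was 0.03 with median centring. With 1 array left out Cct6b ranged from -0.04 to 0.05, Ddit3 from -0.04 to 0.05, Dnajb1 from -0.18 to 0.01, Dnajb9 from -0.004 to 0.30, Dnajc3 from -0.03 to 0.23, Hsf2 from -0.006 to 0.24 and Xbp1 from -0.16 to 0.02.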
